A study of Mus musculus with 16 samples.

Results

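The Adam, Adamts and Mmp proteases and their inhibitors, the Timps, were followed across mouse embryonic stem cells (mESCs) and 7 populations sorted from them during endoderm and mesoderm differentiation. Genes were taken by symbol, namely Adam, Adamts or Mmp with a number (and a final a or b where present) and Timp1 to Timp4, and each gene was read from its brightest probe set that carried a single symbol. This gave 77 of 19938 genes, of which 33 were Adams, 18 Adamts, 22 Mmps and 4 Timps. The platform was the Affymetrix Mouse Gene ST 1.0 array, with 16 arrays in all and 2 biological replicates per group, and every level below is a log2 value. The arrays ask how the extracellular protease programme differed between the lineages and between progenitors and definitive cells.

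All groups came from 1 dual-reporter line, labelled E14.1 on a 129/Ola background, with the genotype TGFP/+; Foxa2tagRFP/+, so that the undifferentiated cells carried the same 2 reporter alleles as the sorted ones. Undifferentiated cells (ES, day 0) were grown on mitomycin-treated embryonic fibroblast feeders with leukaemia inhibitory factor and were not sorted. The other cells were plated on feeders that express Wnt3a, after feeders from the maintenance culture had been allowed to attach and be left behind. For endoderm the medium held 12 ng/ml activin A, and Foxa2+ T- cells were sorted as CD24low (definitive endoderm progenitors, DEP) or CD24high (definitive endoderm, DE) on days 2 and 4. The mesoderm culture received less activin A, at 3 ng/ml, together with Bmp4 at 7.5 ng/ml, and Foxa2- T+ cells were sorted as CD24low (mesoderm progenitors, MP) on days 2 and 4 or CD24 negative (mesoderm, MES) on day 4. Gate and medium therefore changed together between the lineages, and their effects cannot be told apart.

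Adams, Adamts and Mmps are zinc-dependent proteases made as inactive precursors. Mmps cut collagens, laminins and other matrix proteins, Adamts enzymes cut procollagens and large proteoglycans such as versican, and the catalytic Adams release the outer parts of membrane proteins, among them growth factor precursors and Notch. Timps bind the active site of these enzymes and block it. During gastrulation, cells that leave the epiblast cross or remodel a basement membrane, and this family is the one best known for that kind of work. The arrays measure RNA, and enzyme activity was not measured.

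Array medians lay between 7.42 and 7.49 and replicate arrays correlated at 0.9893 to 0.9952. Single probe sets differed between replicates by up to 6.60 in day 2 DEPs, 6.37 in day 2 DE and 4.34 in day 4 MPs. In the other groups the largest difference was 2.03 to 2.70. All 8 definitive endoderm markers examined were higher in DE than in MES and all 8 mesoderm markers were lower. The endoderm markers included Foxa2, on which the cells were sorted. Between DEP and MP, 4 of the 8 endoderm markers were called higher and 6 of the 8 mesoderm markers lower in DEP. The second day 2 DE array stood apart from the first in some fibroblast and other genes: Col1a1 read 10.40 against 8.14, Cubn 9.71 against 6.09 and Mmp13 7.51 against 6.13. Other fibroblast markers hardly moved on this array: Dcn read 6.26 on both, and Fbln2 8.09 against 8.20. Values from DE that moved by 0.2 or more without this array, or lost their call, are given with and without it. Visceral endoderm markers (8 genes) averaged 8.36 and 8.31 in day 4 DE cells, 6.91 to 7.38 in the other DE and DEP arrays and 6.75 or less in ES, MP and MES arrays, and 3 of 8 were higher in DE than in MES. Their part in the endoderm values was not tested. In bulk RNA, fewer cells of a type and less RNA per cell cannot be told apart.

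Of the 77 genes, 67 were among the 32000 probe sets of highest mean that were tested with limma. The remaining 10 (Adam5, Adam6b, Adam24, Adam25, Adam26a, Adam26b, Adam34, Adam39, Mmp1b and Mmp8) were dimmer, and none was called in any comparison when all probe sets were kept. A gene was called when its log2 fold change exceeded 1 in size with an adjusted p below 0.05. Across 10 comparisons, 18 of the 67 genes, or 26.9%, were called at least once, where 13.1% of all 18716 tested genes were. They were all 4 Timps, 8 of 20 Mmps, 4 of 18 Adamts and 2 of 25 Adams. The other 49 were never called, and in 34 of them the 8 group means lay within 0.5 of each other. The p-values rest on the spread between 2 replicates per group, pooled over the groups.

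**Figure D1:**
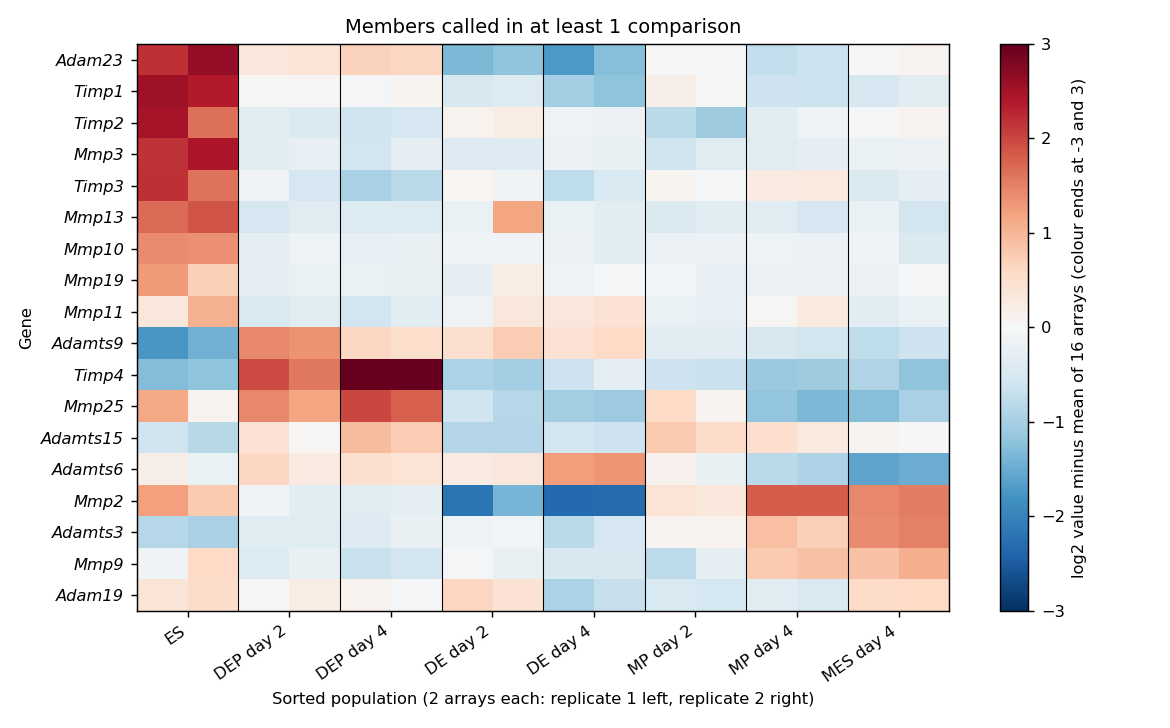
Levels of the 18 genes called in at least 1 comparison, as the log2 value minus the gene's mean over 16 arrays (colour, ending at -3 and 3), with genes in rows and arrays in columns, 2 per population. The upper rows, from Adam23 to Mmp10, are darkest red in the ES columns, Timp4 and Mmp25 are reddest in DEP, and Mmp2, Adamts3 and Mmp9 are reddest in the day 4 mesoderm columns.

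Between the progenitors of the lineages, DEP against MP with both days averaged, 3 genes were higher and 1 lower in DEP. Timp4, a secreted inhibitor of Mmps, was 12.2-fold higher in DEP. Mmp25, a protease anchored to the cell surface by a lipid tail, and Adamts9, a secreted protease that cuts versican, were also higher. Mmp2, the gelatinase that cuts basement membrane collagen, was lower. Over all 18716 tested genes 0.999% were called higher and 0.983% lower in DEP, and of the 67 genes here 4.48% were higher and 1.49% lower. Their median difference was 0.01, beside 0.00 for all genes.

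Timp4 read 9.61 and 9.25 in day 2 DEPs, 11.19 and 11.54 in day 4 DEPs, 7.04 and 7.0 in day 2 MPs and 6.55 and 6.59 in day 4 MPs. The lowest DEP array lay above the highest MP array by a wide margin, and the day 4 DEPs were the highest arrays of the series. The difference was 3.60 (SE 0.11, adjusted p = 8.06e-09). Timp4 stayed at 6.37 and 6.45 in ES cells, 6.71 and 6.63 in day 2 DE, 7.04 and 7.39 in day 4 DE and 6.75 and 6.45 in MES, so that no group outside the Foxa2+ CD24low gate overlapped the DEPs. Among the other groups, day 4 DE and day 2 MPs touched at 7.04, and the arrays of day 2 DE, day 4 MPs, MES and ES cells lay together between 6.37 and 6.75.

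The promoter of Timp4 is printed because Timp4 set the DEPs apart from every other population, and because these cells were sorted for Foxa2, a forkhead factor. DE cells were sorted for Foxa2 too, and Foxa2 read 10.33 to 11.17 in DE and 10.00 to 11.41 in DEP. Whether Foxa2 had a part in the Timp4 difference was not tested. The sequence is that of RefSeq, GRCm38.p6, chr6:115252156-115252455 on the minus strand, from 250 bases before the start to 50 bases after it, written 5′ to 3′ in the direction of the gene. Capitals mark the only match in it to the motifs searched, the forkhead letters TGTTTGC, which begin 156 bases before the start.

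Timp4 promoter: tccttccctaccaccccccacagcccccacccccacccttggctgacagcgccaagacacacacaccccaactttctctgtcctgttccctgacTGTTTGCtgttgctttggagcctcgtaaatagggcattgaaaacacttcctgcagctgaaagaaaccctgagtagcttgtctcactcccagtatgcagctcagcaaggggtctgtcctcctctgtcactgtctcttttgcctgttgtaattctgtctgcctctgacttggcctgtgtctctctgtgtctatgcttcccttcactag

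Both strands were searched for the forkhead letters TGTTTAC and TGTTTGC, which cannot match the same place, the AP-1 letters TGAGTCA, the Tcf/Lef letters CTTTGAT and the Gata letters AGATAAG. Among 32851 promoters of the same length, 5.07% held TGTTTGC and 3.65% held TGTTTAC. Of the 47 genes of the family with an entry, Timp4 alone held TGTTTGC. The other forkhead letters, TGTTTAC, were held by 5 of the 47, namely Adam8, Adam19, Adamts13, Mmp10 and Mmp13. Mmp25 and Adamts9, the other genes higher in DEP, held none of the 5 motifs in their windows. A match describes letters and is not a bound site.

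Mmp25 read 10.02 and 9.78 in day 2 DEPs, 10.60 and 10.37 in day 4 DEPs, 9.19 and 8.66 in day 2 MPs and 7.40 and 7.25 in day 4 MPs. All DEP arrays lay above all MP arrays, and the distance was widest on day 4. The difference over both days was 2.07 (SE 0.20, adjusted p = 3.16e-05). On day 2 alone it was 0.97 (adjusted p = 0.126), so the call rests on day 4.

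Adamts9 read 11.96 and 11.86 in day 2 DEPs, 11.14 and 11.05 in day 4 DEPs, 10.17 and 10.19 in day 2 MPs and 10.04 and 9.96 in day 4 MPs. The groups did not overlap. The difference was 1.41 (SE 0.09, adjusted p = 1.24e-06), and all 6 probe sets of Adamts9 were called higher in DEP, with differences from 1.41 to 2.16. Adamts9 was higher in DEP on each day alone, by 1.73 on day 2 and 1.09 on day 4.

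Mmp2 read 9.61 and 9.41 in day 2 DEPs, 9.36 and 9.42 in day 4 DEPs, 10.14 and 10.05 in day 2 MPs and 11.53 and 11.54 in day 4 MPs. The day 4 MPs were the highest arrays of the series for Mmp2, while the DEPs and day 2 MPs lay closer together. The difference was -1.37 (SE 0.15, adjusted p = 8.48e-05), and on day 2 alone it was -0.58 (adjusted p = 0.257). Mmp9, the other gelatinase, differed by -0.62 over both days (adjusted p = 0.0216), under the fold needed for a call.

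**Figure D2:**
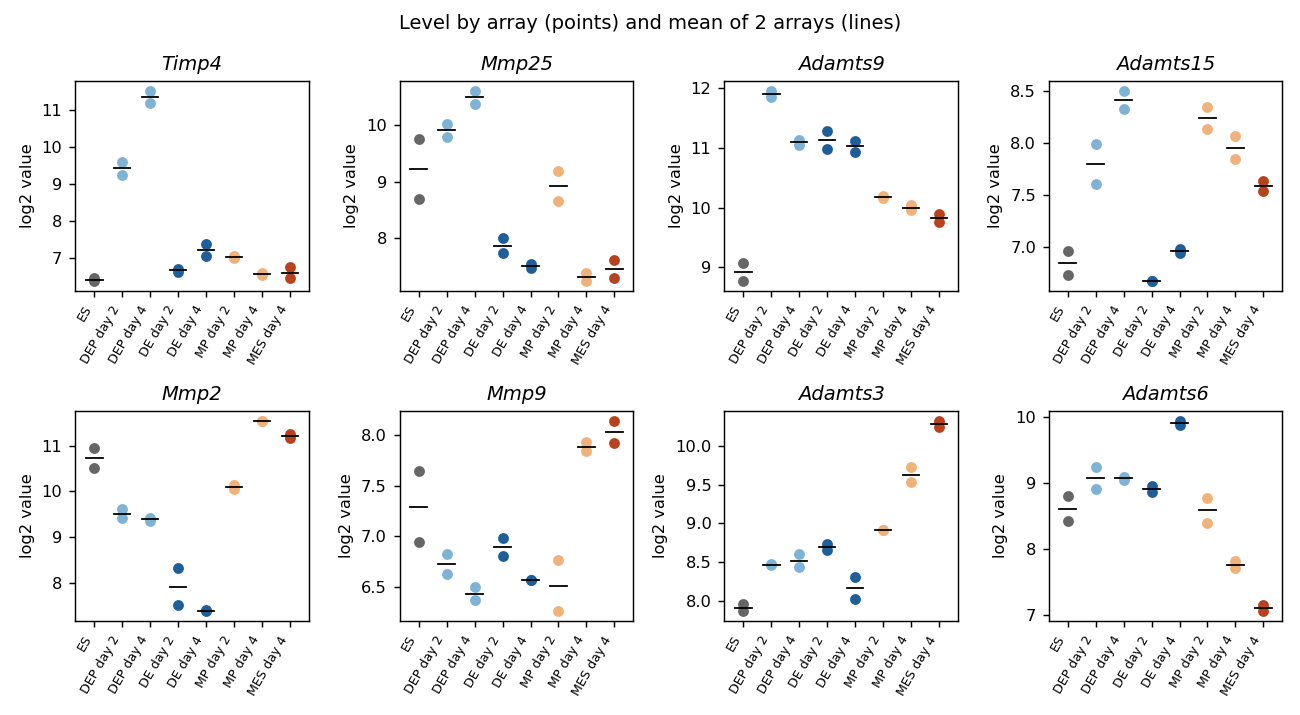
Log2 levels of 8 genes in each array (points) with the mean of the 2 arrays of a population (lines), 1 panel per gene, each with its own vertical axis. Timp4 rises to 11.19 and 11.54 in day 4 DEPs, and Mmp2 runs from 7.38 in day 4 DE to 11.54 in day 4 MPs.

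The distance between DEP and MP itself changed from day 2 to day 4 for 4 genes. Timp4 and Mmp25 moved further up in DEP relative to MP, and Mmp9 and Mmp2 moved further down. Among all genes 0.657% were called in the upward and 0.908% in the downward direction, against 2.99% of the 67 genes in each. The change was 2.38 for Timp4 (SE 0.23, adjusted p = 2.86e-04), 2.19 for Mmp25 (SE 0.40, adjusted p = 0.0142), -1.67 for Mmp9 (SE 0.30, adjusted p = 0.0127) and -1.57 for Mmp2 (SE 0.30, adjusted p = 0.0176). The Timp4 call was kept when any 1 array was left out. The Mmp2 call was lost without any 1 of 7 of the 8 DEP and MP arrays, the exception being replicate 2 of the day 2 DEPs, with values from -1.61 to -1.47 and adjusted p from 0.0583 to 0.0849. The calls of Mmp25 and Mmp9 were lost without any 1 of 4 arrays, namely replicate 2 of the day 2 DEPs, replicate 1 of the day 4 DEPs, replicate 1 of the day 2 MPs or replicate 2 of the day 4 MPs. The values then ran from 1.92 to 2.11 for Mmp25 (adjusted p up to 0.0696) and from -1.63 to -1.42 for Mmp9 (adjusted p up to 0.0569).

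Taken day by day, 2 genes separated DEP from MP on day 2 and 9 on day 4. On day 2 these were Timp4, higher by 2.41 (SE 0.16, adjusted p = 1.16e-05), and Adamts9, higher by 1.73 (SE 0.12, adjusted p = 1.87e-05). The shares over all genes on that day were 0.647% higher and 0.54% lower. On day 4, Timp4 (4.80), Mmp25 (3.16), Adam23 (1.34), Adamts6 (1.31) and Adamts9 (1.09) were higher in DEP, and Adamts3 (-1.11), Timp3 (-1.16), Mmp9 (-1.45) and Mmp2 (-2.15) were lower, with adjusted p from 1.82e-08 to 0.00144. The shares over all genes on day 4 were 1.77% higher and 1.78% lower.

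The moves within each population showed where these changes lay. In DEP, 1 gene was called between the days: Timp4 rose by 1.93 (SE 0.16, adjusted p = 3.92e-04), against 0.369% of all genes that rose and 0.0748% that fell. This call was lost when the 2 DEP groups were fitted alone (1.93, adjusted p = 0.0691). In MP, Mmp2 rose by 1.44 (SE 0.21, adjusted p = 0.00173), from 10.14 and 10.05 to 11.53 and 11.54, and Mmp9 rose by 1.37 (SE 0.21, adjusted p = 0.00245), from 6.26 and 6.77 to 7.84 and 7.93. Both gelatinases thus read higher in every day 4 MP array than in either day 2 array. Mmp25 fell by 1.60 in MP (SE 0.28, adjusted p = 0.0056), and without replicate 1 of the day 2 MPs the value was -1.33 (adjusted p = 0.0646). Over all genes 1.22% rose and 0.513% fell in MP. In DE, Adam19 fell by 1.36 (SE 0.12, adjusted p = 9.53e-05), from 10.86 and 10.64 on day 2 to 9.26 and 9.52 on day 4, against 1.23% of genes that rose and 0.641% that fell. Fitted on the 2 DE groups alone, the fall of Adam19 had an adjusted p of 0.0552. Adam19, also called meltrin beta, releases neuregulins and other membrane ligands. Adamts9 in DEP moved by -0.82 between the days (adjusted p = 0.0134), short of a call. Its 6 probe sets ran from -1.33 to -0.82 there, and 3 of them were called lower.

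Between DE, with both days averaged, and MES, 6 genes were called. The secreted proteases Adamts6 and Adamts9 were higher in DE, and Mmp2, Mmp9, Adamts3 and Adam23 were lower. That is 2 genes higher and 4 lower, or 2.99% and 5.97% of the 67, where 3.2% of all genes were higher and 2.74% lower. The median difference of the family was 0.02 and that of all genes 0.01. Mmp2 was the widest, 11.8-fold lower in DE.

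Mmp2 read 7.52 and 8.32 in day 2 DE, 7.38 and 7.41 in day 4 DE and 11.17 and 11.25 in MES. Every DE array lay far below MES, the second day 2 DE array being the least low. The difference was -3.55 (SE 0.18, adjusted p = 9.21e-08), and without that array -3.75. Mmp9 read 6.98 and 6.81 in day 2 DE, 6.57 and 6.57 in day 4 DE and 7.92 and 8.14 in MES, a difference of -1.29 (SE 0.18, adjusted p = 3.24e-04). Mmp14, the membrane-bound protease that activates the Mmp2 precursor together with Timp2, went the other way without reaching a call. It read 10.57 and 10.34 in day 2 DE, 10.18 and 10.15 in day 4 DE and 9.78 and 9.62 in MES, and differed by 0.61 (adjusted p = 0.0356). Timp2 differed by -0.04 and Timp3 by 0.03.

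Adamts3 cuts the amino-terminal end off procollagens and activates a vascular growth factor. It read 8.66 and 8.73 in day 2 DE, 8.02 and 8.31 in day 4 DE and 10.25 and 10.33 in MES. No DE array came near MES. The difference was -1.86 (SE 0.10, adjusted p = 9.55e-08), and all 16 probe sets of Adamts3 were called lower, with differences from -3.08 to -1.31. Adamts6, a relative of Adamts10 that acts on microfibrils and cell adhesion, had the opposite order. Its levels were 8.87 and 8.96 in day 2 DE, 9.88 and 9.95 in day 4 DE and 7.05 and 7.14 in MES, a difference of 2.32 (SE 0.13, adjusted p = 2.34e-07). Adamts9 was higher in DE by 1.25 (SE 0.11, adjusted p = 6.03e-06), and all 6 of its probe sets were called.

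Adam23 has no protease activity and binds integrins and secreted Lgi proteins. It read 6.79 and 6.93 in day 2 DE, 6.41 and 6.87 in day 4 DE and 8.16 and 8.26 in MES, a difference of -1.46 (SE 0.14, adjusted p = 1.21e-05). The DE arrays were the lowest of the series for this gene. MES cells were sampled on day 4 only. With day 4 DE arrays alone 7 genes were called, and with day 2 DE arrays alone 6. The shares over all genes are not given for single days of DE, so these counts stand without them. The additional gene on day 4 was Adam19, which differed from MES by -1.40 in day 4 DE (adjusted p = 6.50e-06) and by -0.04 in day 2 DE (adjusted p = 0.885).

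**Figure D3:**
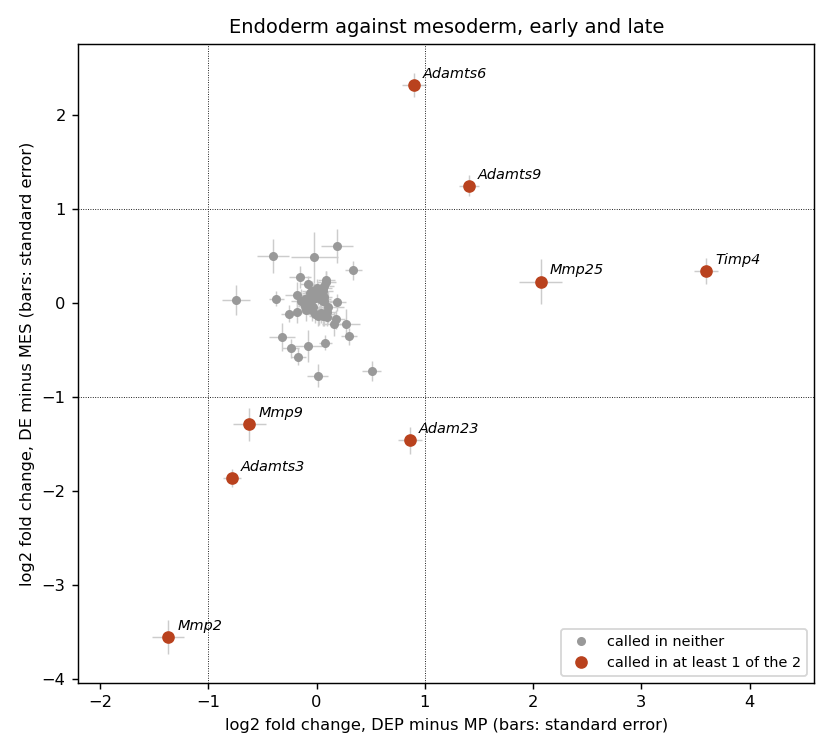
Log2 difference between endoderm and mesoderm for the 67 tested genes, progenitors (DEP minus MP) on the horizontal and later cells (DE minus MES) on the vertical axis, with standard errors as bars and dotted lines at -1 and 1. Red points were called in at least 1 of the comparisons. Timp4 lies at 3.60 and 0.34, Mmp2 at -1.37 and -3.55, and most genes lie near the centre.

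Within the endoderm culture, 5 genes were lower in DE than in DEP and none was higher by the limma test, where 10 were higher and 12 lower at an unadjusted p below 0.05. The 5 were Timp4, Mmp25, Adam23, Mmp2 and Adamts15. Over all genes 2.2% were higher and 2.47% lower in DE, against 7.46% of the 67 genes lower. These differences use the DEP and DE arrays already described, so they are not independent of the comparisons above. Timp4 was 11-fold lower in DE (log2 difference -3.46, SE 0.11, adjusted p = 5.98e-09), and Mmp25 differed by -2.50 (SE 0.20, adjusted p = 2.86e-06), reading 8.0 and 7.74 in day 2 DE and 7.55 and 7.49 in day 4 DE. Mmp2 differed by -1.79 (SE 0.15, adjusted p = 4.06e-06), or -1.99 without the second day 2 DE array.

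Adam23 read 8.45 and 8.56 in day 2 DEPs and 8.83 and 8.77 in day 4 DEPs, all above the DE arrays, and differed by -1.90 (SE 0.11, adjusted p = 2.65e-07). Adamts15, which cuts proteoglycans of the versican group, read 7.99 and 7.60 in day 2 DEPs, 8.50 and 8.32 in day 4 DEPs, 6.67 and 6.67 in day 2 DE and 6.98 and 6.94 in day 4 DE. Its levels in the groups did not overlap, and the difference was -1.29 (SE 0.10, adjusted p = 2.28e-06). Mmp14 differed by 0.88 in the other direction (adjusted p = 0.00115), with 9.25 and 9.31 in day 2 DEPs and 9.65 and 9.54 in day 4 DEPs. Every DE array of Mmp14 lay above every DEP array. On day 2 alone the difference of 1.18 met the call rule (adjusted p = 0.00391), and on day 4 it was 0.57 (adjusted p = 0.0932). Timp1 differed by -0.81 (adjusted p = 9.22e-06), with -0.48 on day 2 and a value of -1.13 on day 4 that met the call rule (adjusted p = 1.52e-05).

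Between mesoderm progenitors and MES, 2 genes were higher in MES and 1 lower, all by little more than the fold required. Over all genes 0.759% were higher and 0.614% lower. Adam19 read 9.75 and 9.67 in day 2 MPs, 9.84 and 9.74 in day 4 MPs and 10.78 and 10.81 in MES, a difference of 1.04 (SE 0.11, adjusted p = 1.50e-04). The MES arrays were clear of all MP arrays. Adamts3 differed by 1.02 (SE 0.10, adjusted p = 8.34e-05), reading 8.91 and 8.92 in day 2 MPs and 9.73 and 9.53 in day 4 MPs. Adamts6 differed by -1.07 (SE 0.13, adjusted p = 5.53e-04), reading 8.77 and 8.40 in day 2 MPs and 7.81 and 7.71 in day 4 MPs. For both genes the day 4 MPs stood between the day 2 MPs and MES. Against day 4 MPs alone the differences were 0.66 for Adamts3 and -0.66 for Adamts6, under the fold required. Adamts3 fell short without replicate 2 of the day 4 MPs (0.97) or replicate 2 of MES (0.98), and Adamts6 without replicate 1 of the day 2 MPs (-0.98).

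Against undifferentiated cells the family was lower more often than higher. In DEP 10 genes were lower than in ES cells and 3 higher, or 14.9% and 4.48% of the 67, where 3.3% of all genes were lower and 1.84% higher. In MP 9 were lower and 3 higher, or 13.4% and 4.48%, where 3.46% of all genes were lower and 1.69% higher. Timp1, Timp2, Timp3, Mmp3, Mmp10, Mmp13, Mmp19 and Adam23 were lower in both, and Adamts9 and Adamts15 higher in both. The comparisons share the 2 ES arrays and are not independent of each other.

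The mean of the fibroblast markers was also highest on the ES arrays. The 17 tested fibroblast markers of 20 averaged 9.81 and 9.47 in ES cells, 7.15 to 7.65 in DE, 7.17 to 7.32 in DEP, 7.17 to 7.49 in MP and 7.55 to 7.63 in MES, and 12 of 17 were lower in DEP and 11 of 17 in MP than in ES cells. Postn, a matrix protein of fibroblasts, read 10.36 and 10.18 in ES cells and 5.14 to 5.41 elsewhere. Not every marker followed the mean: Pdgfrb read 9.50 and 8.89 in ES cells and 10.31 and 10.43 in MES. ES cells were unsorted and grown on feeders, so feeder RNA and ES cell RNA cannot be told apart in the comparisons with ES cells.

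Timp1 read 11.35 and 11.18 in ES cells, 8.83 and 8.84 in day 2 DEPs, 8.76 and 8.89 in day 4 DEPs, 8.98 and 8.79 in day 2 MPs and 8.18 and 8.16 in day 4 MPs. It was lower by 2.43 in DEP (a log2 difference of -2.43, SE 0.09, adjusted p = 1.31e-08) and differed by -2.73 in MP (adjusted p = 5.69e-09). Timp2, which blocks Mmp2 and also takes part in its activation, read 11.32 and 10.51 in ES cells and between 7.79 and 9.08 in all sorted arrays. It differed by -2.54 in DEP (SE 0.17, adjusted p = 1.46e-06) and -2.64 in MP (adjusted p = 9.95e-07). Timp3, which is bound to the matrix and also blocks Adam17, read 10.96 and 10.41 in ES cells and 7.80 to 9.07 in the sorted arrays, with differences of -2.50 in DEP (SE 0.16, adjusted p = 6.84e-07) and -1.76 in MP (adjusted p = 1.05e-05). The ES arrays of these 3 inhibitors did not overlap any sorted array. Timp4 was the opposite, higher in DEP than in ES cells by 3.99 (SE 0.14, adjusted p = 8.04e-09).

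Mmp3 and Mmp10, the stromelysins, which cut many matrix proteins, and Mmp13, a collagenase, lie in a row of 10 Mmp genes on chromosome 9. Of the 8 that were tested, these 3 were lower in DEP and in MP than in ES cells, where 3.3% and 3.46% of all genes were lower. Mmp3 read 8.20 and 8.47 in ES cells and 5.44 to 5.86 in the sorted arrays. Mmp10 read 8.22 and 8.17 in ES cells and 6.37 to 6.70 in the sorted arrays. Mmp13 read 8.01 and 8.20 in ES cells, 7.51 in the second day 2 DE array and 5.77 to 6.13 in the others. In DEP the differences from ES cells were -2.65 for Mmp3 (SE 0.11, adjusted p = 1.87e-08), -1.62 for Mmp10 (SE 0.09, adjusted p = 2.28e-07) and -2.21 for Mmp13 (SE 0.27, adjusted p = 1.37e-04). No sorted array overlapped the ES arrays, and that DE array came nearest. None of the 3 calls was lost without any 1 array.

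The promoters of these 3 genes are printed because the genes lie in the same row, with other Mmp genes between them, and were highest on the same arrays. They are those of RefSeq, GRCm38.p6, all on the plus strand: Mmp3 at chr9:7445572-7445871, Mmp10 at chr9:7502092-7502391 and Mmp13 at chr9:7272264-7272563. Capitals mark the AP-1 letters (TGAGTCA, or TGACTCA on the other strand) and the forkhead letters (TGTTTAC, or GTAAACA on the other strand).
Mmp3 promoter: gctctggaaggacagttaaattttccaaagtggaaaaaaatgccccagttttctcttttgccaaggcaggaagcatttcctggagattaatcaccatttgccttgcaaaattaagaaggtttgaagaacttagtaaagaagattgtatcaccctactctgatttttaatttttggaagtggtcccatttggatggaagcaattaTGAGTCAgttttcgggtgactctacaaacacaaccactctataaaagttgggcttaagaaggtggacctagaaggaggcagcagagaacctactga
Mmp10 promoter: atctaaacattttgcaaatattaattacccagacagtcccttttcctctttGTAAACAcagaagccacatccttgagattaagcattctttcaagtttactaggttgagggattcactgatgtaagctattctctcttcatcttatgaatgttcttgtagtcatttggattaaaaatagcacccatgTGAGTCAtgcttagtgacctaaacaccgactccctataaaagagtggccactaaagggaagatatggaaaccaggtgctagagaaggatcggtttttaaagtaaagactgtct
Mmp13 promoter: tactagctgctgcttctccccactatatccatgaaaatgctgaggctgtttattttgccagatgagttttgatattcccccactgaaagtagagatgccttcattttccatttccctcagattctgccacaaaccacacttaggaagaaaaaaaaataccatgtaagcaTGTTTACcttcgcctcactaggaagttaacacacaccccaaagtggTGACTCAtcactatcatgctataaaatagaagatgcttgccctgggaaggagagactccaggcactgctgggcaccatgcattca

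The AP-1 letters begin 46 bases before the start of Mmp3, 63 before that of Mmp10 and 35 before that of Mmp13. Among all promoters 5.2% held these letters, and in the family 10 of 47 genes did. The others were Mmp1a, Mmp1b, Mmp7, Mmp12, Adam1b, Adam19 and Adam29. Of the same row of genes, Mmp1a, Mmp7 and Mmp12 were tested and not called, with levels on all arrays of 4.76 to 5.56, 6.06 to 6.58 and 5.73 to 6.23, so the letters were present in called and uncalled genes. Mmp1a was short of the fold, at -0.41 in DEP (adjusted p = 0.0365) and -0.48 in MP (adjusted p = 0.0166) against ES cells.

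**Figure D4:**
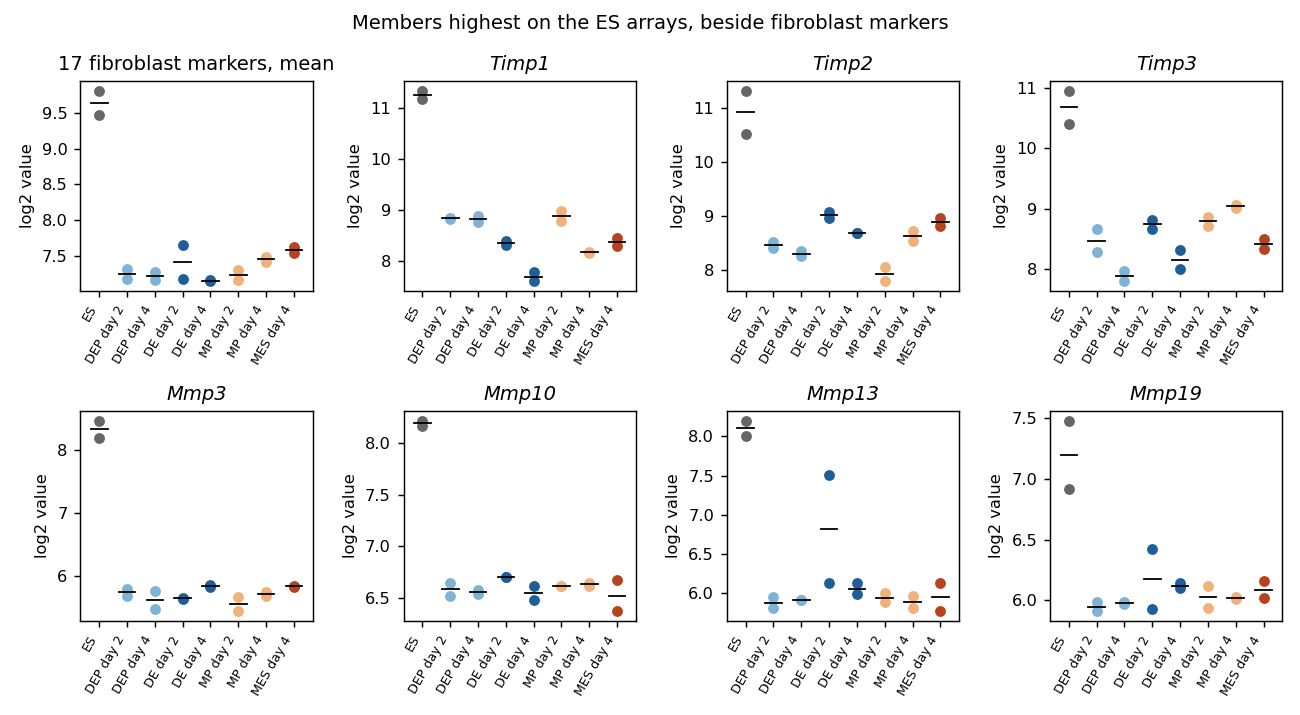
Log2 levels in each array (points) with the mean of 2 arrays (lines) for the mean of 17 fibroblast markers and for 7 genes lower in both DEP and MP than in ES cells, each panel with its own vertical axis. The ES arrays are highest in every panel, at 9.81 and 9.47 for the markers and 11.35 and 11.18 for Timp1, and the second day 2 DE array stands above the first for the markers and for Mmp13.

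Adam23 read 10.34 and 10.77 in ES cells and at most 8.83 in any sorted array, and differed by -1.90 in DEP (adjusted p = 2.15e-06) and -2.76 in MP (adjusted p = 1.16e-07). Mmp2 was lower in DEP than in ES cells by a log2 difference of -1.28 (adjusted p = 3.95e-04), and in MP the difference was 0.09 (adjusted p = 0.79). Mmp19 differed by -1.24 in DEP and -1.17 in MP, and Mmp11 was called in DEP and not in MP, at -1.14 (adjusted p = 8.67e-04) against -0.74 in MP (adjusted p = 0.0124). Of the 7 tested Adamts that cut proteoglycans, 2 were called higher than in ES cells in DEP and in MP, and 0 lower. Adamts5, another of the 7, differed by -0.98 in DEP (adjusted p = 1.47e-04) and -0.88 in MP (adjusted p = 3.02e-04), short of the fold. Adamts9 read 8.77 and 9.07 in ES cells and 9.76 or more in every sorted array, and was higher by 2.58 in DEP (SE 0.11, adjusted p = 2.43e-08) and 1.17 in MP (SE 0.11, adjusted p = 1.27e-05). Its 6 probe sets were all called in DEP and 3 of 6 in MP. Adamts15 was higher by 1.26 in DEP (adjusted p = 2.08e-05) and 1.25 in MP (adjusted p = 1.99e-05), although with day 2 DEPs alone its value was 0.95. Adamts3 was higher by 1.37 in MP (adjusted p = 1.59e-06), with 15 of 16 probe sets called, and Mmp25 differed by -1.08 there (adjusted p = 0.00766). The ES replicates decided several of the smaller differences. Without ES replicate 1, Mmp19 was no longer called (-0.95 in DEP and -0.89 in MP), nor was Mmp25 in MP (-0.56), while Mmp25 was called higher in DEP (1.5), Mmp9 lower in DEP (-1.06), and Mmp11 (-1.10) and Adam19 (-1.01) lower in MP. Without ES replicate 2, Mmp11 was no longer called in DEP (-0.78), and Mmp14 and Adamts5, a proteoglycan-cutting relative of Adamts15, were called lower in both. Mmp25 in MP also lost its call without replicate 2 of the day 2 MPs (-0.95).

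Of the 25 tested Adams, 13 are genes of testis and epididymis, and Adam19 and Adam23 were the only ones called. Adam10 and Adam17, the widely used sheddases that cut Notch and growth factor precursors, were called in no comparison. Adam10 lay between 9.09 and 9.89 on all 16 arrays and differed by 0.38 between DE and DEP (adjusted p = 0.0103). Adam17 lay between 9.71 and 10.28 and differed by -0.37 between DEP and MP (adjusted p = 0.00345). The testis and epididymis Adams, which serve sperm maturation and fertilization, had group means within 0.71 of each other in every case. Adam19 also differed, with the days averaged, by -0.72 between DE and MES (adjusted p = 4.42e-04) and by -0.92 between MP and ES cells (adjusted p = 7.59e-05), both under the fold required.

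Lists of genes that act with the family are read against the shares of all genes called, 3.2% higher and 2.74% lower for DE against MES and 0.999% and 0.983% for DEP against MP. Among 21 regulators, 2 were higher and 1 lower in DE, and none was called between DEP and MP, where 8 had an unadjusted p below 0.05. Tspan15, a tetraspanin that carries Adam10 to the cell surface, read 9.10 to 9.39 in DE and 7.22 and 7.27 in MES, a difference of 2.01 (adjusted p = 9.22e-08). Cd9, a tetraspanin found with Adam17, was higher by 1.33 (adjusted p = 1.17e-05). Lrp1, the receptor that takes up Mmps and Timps from outside the cell, differed by -1.71 (adjusted p = 4.60e-05), reading 8.80 to 9.41 in DE and 10.78 and 10.68 in MES. Between DE and DEP, Tspan15 (1.44), Cd9 (1.03) and the membrane-anchored inhibitor Reck (1.09, adjusted p = 2.58e-05) were higher in DE. Without the second day 2 DE array Cd9 and Reck were each at 0.98 there, under the fold required.

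Of 7 other metzincins, Tll1, a tolloid protease that trims procollagens, was lower in DE than in MES by a log2 difference of -1.69 (adjusted p = 1.11e-06). Of 6 tested proprotein convertases, which switch on Adam and Mmp precursors, Pcsk5 differed by -1.26 (adjusted p = 1.23e-06). No gene of these lists was called between DEP and MP, where 1 metzincin and 3 convertases had an unadjusted p below 0.05. None of 7 tested genes of plasminogen activation and none of 7 Adamts-like proteins was called by limma in either comparison, with 2 and 3 of them at an unadjusted p below 0.05 in each. Among 21 matrix substrates, the laminin chains Lamc1 (1.66, adjusted p = 6.36e-07) and Lama5 (1.59, adjusted p = 6.67e-06) were higher in DE than in MES, and versican (Vcan, -2.01, adjusted p = 0.00136) and fibronectin (Fn1, -2.00, adjusted p = 5.48e-06) were lower. Without the second day 2 DE array the values were -2.39 for Vcan and -2.21 for Fn1. Fn1 (-2.08, adjusted p = 2.05e-06) and Vcan (-1.12, adjusted p = 0.0265) were also lower in DEP than in MP.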

How the data were processed

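The authors normalized all arrays jointly in oligo 1.48.0 (robust multichip average). The table they deposited gives log2 values for 35556 probe sets. These values are background-corrected and quantile-normalized, which hides shifts of total RNA and compresses the differences of dim genes. Groups were taken from the sample labels. Probe sets were named through the platform annotation (of those kept, 20427 had a single symbol, 1400 several and 10173 none), and 21698 single-symbol probe sets matched the RefSeq table by Entrez number. Mmp15 and Adamts2 were not analysed here.

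After keeping the 32000 brightest probe sets by mean, the model was fitted in limma 3.58.1 (R 4.3.3), with a mean for each of 8 groups over 16 arrays, contrasts, empirical Bayes moderation and Benjamini-Hochberg adjustment over the 32000. DE, DEP and MP are means of days 2 and 4. A call needed an adjusted p below 0.05 and a log2 fold change of over 1 in size. The background shares count 18716 genes with a single symbol. The number of arrays, 2 per group, limits the precision. The fit was tested on simulated data with independent noise at each probe set, which cannot speak to differences between whole arrays. Replicate numbers were checked for pairing: 8 of 28 pairs of groups had correlated deviations over 0.1 (range -0.2 to 0.25), so the numbers were not treated as pairs. Genes were named if among the 6 highest or 6 lowest called in the 4 comparisons among sorted populations, among the 5 in the others, if on a list of Timps, gelatinases, Mmp14, Adam10, Adam17, Adam19 and Adamts9, or, for up to 3 genes of a pathway list, if called. Genes outside this rule (those short of a call, Mmp10, Mmp11, Mmp19 and Mmp25 against ES cells, the fourth matrix gene and the regulators between DE and DEP), the motif matches shown and the genes describing the second day 2 DE array were picked with their values in view. The fibroblast markers given singly were also picked with their values in view. The family and the lists were chosen with earlier results of these data known. Alternatives were another filter, another call rule, treat, other moderation, a replicate block, centring, single days, the mean of a gene's probe sets, fits of the compared groups alone and leaving out each array.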

Additional observations from a re-analysis of the deposited data

Results flagged for a closer look

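In 4 genes the difference between DEP and MP was not the same on day 2 and day 4, by a test of the change itself over all probe sets. The change, on the log2 scale from day 2 to day 4, was 2.38 for Timp4 (adjusted p = 2.86e-04) and 2.19 for Mmp25 (adjusted p = 0.0142), where DEP moved further above MP. It was -1.67 for Mmp9 (adjusted p = 0.0127) and -1.57 for Mmp2 (adjusted p = 0.0176), where DEP moved further below MP. In Timp4 the DEP arrays rose while the MP arrays read 7.04 and 7.0, then 6.55 and 6.59. In Mmp2 and Mmp9 the MP arrays rose, and the DEP values on the 2 days differed by -0.12 for Mmp2 and -0.30 for Mmp9. Only the Timp4 call was kept without each array in turn. No cause was tested.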

How the results depend on the processing

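No result reversed. For 129 gene results, no call changed with all probe sets kept, with trended and robust moderation, or with the replicate block, under which the counts were 6 for DE against MES, 4 for DEP against MP, 5 for DE against DEP, 3 for MES against MP, 13 and 12 for DEP and MP against ES cells, 1, 1 and 3 between days in DE, DEP and MP, and 4 for the change of DEP minus MP with the day. With 16000 probe sets, fewer members were tested, Timp4, Mmp9 and Adamts15 not among them, and the counts were 5 for DE against MES, 3 for DEP against MP, 3 for DE against DEP, 3 for MES against MP, 7 and 7 against ES cells, 1, 0 and 2 between days in DE, DEP and MP and 2 for the change with the day. With an adjusted p below 0.05 and no fold required they were, in the order first given, 14, 13, 18, 7, 29, 25, 5, 2, 9 and 7. Shares of all genes called are not given under the alternatives, so these counts show only how the calls of the family moved. With treat, which tests against a log2 fold change of 1, the counts were 3 for DE against MES, 2 for DEP against MP, 0 for MES against MP, 7 for MP against ES cells, 0, 0 and 0 between days and 1 for the change with the day. Its counts for DE against DEP and for DEP against ES cells are not given here. Of the 129 gene results, 22 were weaker with treat. Fitting the compared groups alone left 0 calls between days in DE (Adam19, adjusted p = 0.0552) and in DEP (Timp4, adjusted p = 0.0691). Leaving out the second day 2 DE array for the pathway lists was added after seeing the data. Centring gave 2 between days in DE, and the mean of a gene's probe sets 2 in DEP (Adamts9, -1.11). For DEP against MP, day 2 arrays alone gave 2 and day 4 arrays alone 9. MES, sampled on day 4 only, gave 6 against day 2 MPs, where day and population changed together, and 1 against day 4 MPs. Leaving out each array gave 6 to 6, 4 to 4, 5 to 5, 2 to 3, 13 to 14, 11 to 14, 1 to 2, 1 to 1, 2 to 4 and 1 to 4 in the same order. Except where the construction shows it, the cause was not tested.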
